A study of Homo sapiens with 6 samples.

Results

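The genes described here encode the G protein subunits, the adenylyl cyclases and the regulators of G protein signalling (RGS), taken by their official symbols from the genes listed in the count files. They are 65 of 47470 listed genes and comprise 16 Gα, 5 Gβ, 13 Gγ, 10 adenylyl cyclase (ADCY) and 21 RGS genes. RNA-seq had been performed on HEK293T cells, a line from human embryonic kidney with the large T antigen of SV40, in 3 untreated samples and 3 samples treated with 1 mM valproic acid (VPA) for 1 day. VPA is a branched short-chain fatty acid that inhibits histone deacetylases. Both groups had the same wild-type genotype, and the comparison asked which transcripts differed after histone deacetylase inhibition. The labels name HEK293T throughout, whereas the series title names HEK293. A single line was used, and no source says whether the 3 samples of a group were separate cultures, so p-values measure the spread between these samples only.

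A receptor on the cell surface activates a heterotrimeric G protein by making its α subunit exchange GDP for GTP, after which Gα and the Gβγ pair act on separate effectors. Gs stimulates and Gi/o inhibits most membrane adenylyl cyclases, which make cyclic AMP (cAMP), while Gq/11 acts on phospholipase C β. RGS proteins speed the hydrolysis of GTP by Gi/o and Gq subunits and so shorten the signal. In neurons Gαo is among the most abundant membrane proteins, and the R7 RGS proteins pair with the atypical subunit Gβ5.

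The 6 libraries held between 18622267 and 18828495 reads assigned to genes. Of the 65 genes, 6 had no read in any library, 14 others had too few reads for the test and 45 were tested among 15298 genes. A gene was called when edgeR's quasi-likelihood test gave a Benjamini-Hochberg adjusted p under 0.05 over all tested genes and the log2 fold change (VPA-treated over untreated) was at least 1 in size. All values per sample below are normalised read counts, that is counts scaled by the trimmed mean of M values (TMM), unless another unit is given. Genes of chromosome X, on which none of the 65 lies, say nothing in these files: all 1437 that are listed have a count of 0 in all 6 libraries.

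All of the large changes were upward. Of the 45 tested genes, 11 were called higher after VPA (24.4%), against 12% of all tested genes, and 0 were called lower, against 0.503% of all tested genes. In order of fold change the 11 were GNAO1, RGS4, RGS9, GNG2, ADCY10, GNG8, ADCY5, RGS7, GNG4, RGS17 and ADCY7. By adjusted p alone, 26 of the 45 were higher (57.8%, background 32.9%) and 6 were lower (13.3%, background 30%). The same 6 were lower at an unadjusted p under 0.05, and DESeq2 also called 0 lower. The number lower depended on the scaling: it dropped to 3 when counts were scaled to library totals and to 0 when they were scaled on ribosomal protein genes. In 29 genes every VPA-treated sample lay above every untreated sample (64.4%, background 34.8%), in 7 every VPA-treated sample lay below (background 31%), and in 9 the groups overlapped. The median log2 fold change was 0.29 over the 45 genes and 0.01 over all tested genes. In bulk samples a change in the RNA of each cell and a change in the share of cells that express a gene cannot be told apart.

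The share of genes called differed with the level, and the lowest level is no unbiased sample, since a gene with few reads could pass the filter through the group in which it was high. Of the members called there, ADCY10 and GNG8 had under 10 reads in every untreated library. Among members with a mean under 100 normalised counts 6 of 12 were called higher, where the background was 29.1%. Between 100 and 1000 normalised counts 4 of 17 were called higher, where the background was 8.84%. At 1000 or more, 1 of 16 was called higher, the Gγ gene GNG4, where the background was 0.732%.

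**Figure D1:**
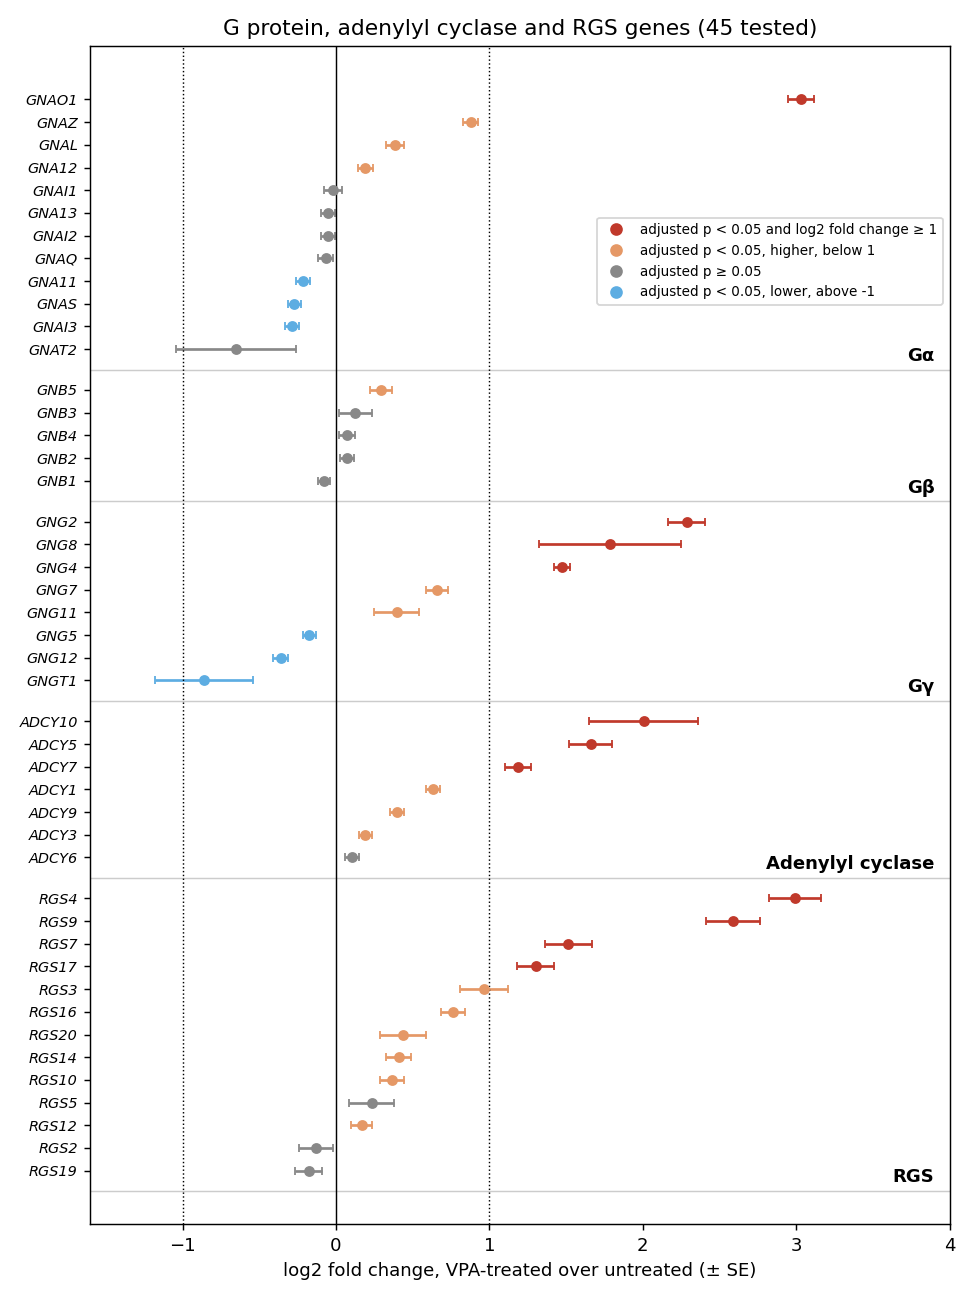
Log2 fold change of VPA-treated over untreated cells for the 45 tested genes (points, with bars for the standard error, 3 samples per group), sorted within each class. The 11 red points lie at or beyond a log2 fold change of 1, between 1.19 for ADCY7 and 3.03 for GNAO1, and no point past the adjusted p lies below -0.86, the value of GNGT1.

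Among the Gα genes the one called was GNAO1, which encodes Gαo, the inhibitory subunit that predominates in brain. GNAO1 had 78.7, 77.5 and 93.4 normalised counts in the untreated samples and 697, 653 and 691 after VPA. The groups lay far apart, with means of 83.2 ± 8.9 and 680 ± 24 (SD, n = 3 each). The log2 fold change was 3.03 (SE 0.09), 8.17-fold (adjusted p = 2.85e-17, edgeR's quasi-likelihood test). GNAO1 spans chr16:56191489-56357444 on the plus strand (GRCh38.p14, RefSeq), and the antisense gene annotated within it, GNAO1-AS1, had a count of 0.

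The 300-base window around the RefSeq start of GNAO1, chr16:56191239-56191538 on the plus strand of GRCh38.p14, is shown because no other tested member had a larger change. It runs from 250 bases before the start to 50 bases after it. Capitals mark GGGCGG on either strand, the core of boxes bound by Sp and KLF factors, and TGACGTCA, the palindromic cAMP response element bound by CREB family factors.
GNAO1: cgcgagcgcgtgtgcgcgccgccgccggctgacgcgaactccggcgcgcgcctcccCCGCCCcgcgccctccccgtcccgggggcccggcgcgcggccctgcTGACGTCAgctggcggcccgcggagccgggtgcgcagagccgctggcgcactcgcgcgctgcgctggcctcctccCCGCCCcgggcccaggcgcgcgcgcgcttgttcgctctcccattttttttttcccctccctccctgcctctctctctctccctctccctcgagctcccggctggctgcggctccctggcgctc
The 2 GGGCGG matches begin 194 and 73 bases before the start, and TGACGTCA begins 148 bases before it. TGACGTCA was present in 1.97% of 27305 promoter windows and in 3.23% of the 11739 windows of tested genes, whereas GGGCGG was present in 44.5% and 69.5% of them. A match describes the letters and not a site in use in these cells.

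The second Gα gene by size of change was GNAZ, which encodes the pertussis toxin-insensitive subunit Gαz. It had 854, 866 and 823 normalised counts in untreated samples and 1590, 1563 and 1523 after VPA, without overlap. Its log2 fold change of 0.88 (SE 0.05, adjusted p = 8.73e-13, edgeR's quasi-likelihood test) stayed under the threshold of 1. GNAL, which encodes the olfactory and striatal stimulatory subunit Gαolf, was higher by a log2 fold change of 0.38 (SE 0.06), and GNA12, a G12/13 subunit, by 0.19 (SE 0.05).

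GNAS, GNAI2 and GNA11, the Gα genes with the highest level per kilobase of canonical transcript, went the other way or did not pass the test. GNAZ and GNA12, which were higher, came next, at 380 and 309 normalised counts per kilobase over all 6 samples. GNAS, which encodes Gαs, had 22486, 22798 and 22335 normalised counts in untreated samples and 19416, 18377 and 18189 after VPA. All 3 treated samples lay below all untreated ones, and the log2 fold change was -0.27 (SE 0.04, adjusted p = 7.77e-06, edgeR's quasi-likelihood test). GNAS held 79.7% ± 0.3 of the summed Gα level per kilobase of canonical transcript in untreated cells and 74.8% ± 0.2 after VPA (SD, n = 3), or 34.0% and 28.4% with exon-union lengths. The annotation places several alternative first exons and an antisense gene, GNAS-AS1, at this locus, which the gene-level count does not resolve.

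GNAI3, one of the Gαi genes, fell from 2340, 2495 and 2590 normalised counts to 1957, 2041 and 2092, a log2 fold change of -0.29 (SE 0.05, adjusted p = 1.41e-05, edgeR's quasi-likelihood test). GNA11, a Gq/11 subunit, fell from 2905, 2634 and 2626 to 2398, 2362 and 2272, a log2 fold change of -0.22 (SE 0.05, adjusted p = 0.000326, edgeR's quasi-likelihood test). In both genes the groups did not overlap. The fall of these well-expressed genes depended on the scaling: with the 75 ribosomal protein genes as reference the log2 fold changes became 0.00 for GNAS and 0.06 for GNA11, and GNAI3 no longer passed the test.

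GNAI2, second among Gα genes per kilobase of canonical transcript but behind GNA11 and GNAZ too with exon-union lengths, had 2328, 2233 and 2167 normalised counts against 2294, 2104 and 2082. The groups overlapped and the log2 fold change of -0.05 (SE 0.05) did not pass the test (adjusted p = 0.323, edgeR's quasi-likelihood test). GNAI1 (-0.02), GNA13 (-0.05) and GNAQ (-0.07) did not pass either, and their groups overlapped. GNAT2, the cone transducin, had 54 reads in all, a log2 fold change of -0.65 with an SE of 0.39, and overlapping groups.

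The make-up of the Gi/o subfamily differed between the groups in the share of each gene in the summed level per kilobase. GNAO1 held 1.59% ± 0.19 of the Gi/o level in untreated cells and 10.9% ± 0.3 after VPA, GNAZ 16.3% ± 0.3 and 25.0% ± 0.4, and GNAI2 61.5% ± 1.3 and 49.5% ± 1.2 (SD, n = 3). With exon-union lengths in place of canonical transcripts the share of GNAO1 was 0.678% and 4.61%. The direction was the same with both lengths, while the size of a share depended on the transcript assumed.

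**Figure D2:**
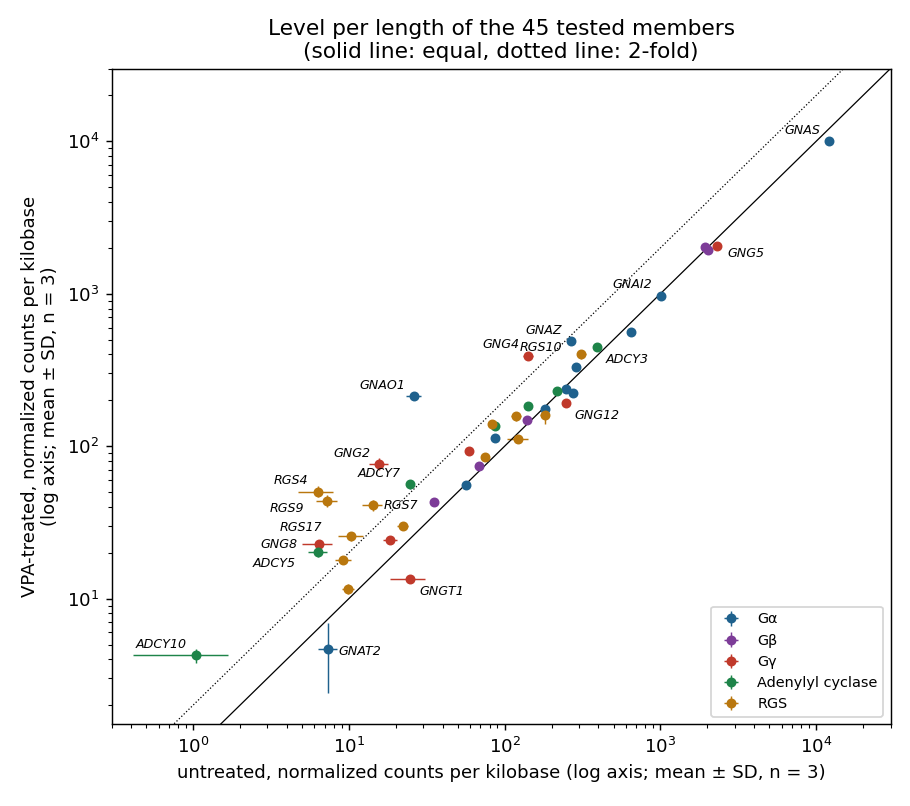
Mean level per kilobase of canonical transcript in untreated (x axis) and VPA-treated cells (y axis) for the 45 tested genes, both axes logarithmic, bars showing the SD of 3 samples. GNAO1 lies above the dotted 2-fold line at 26.1 and 214 normalised counts per kilobase, and GNAS lies under the line of equality at 12157 and 10065.

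None of the 5 Gβ genes was called. GNB2 and GNB1, which encode the common partners of most Gγ subunits, were the most abundant per length, at 1940 ± 51 and 2028 ± 27 normalised counts per kilobase in untreated cells (SD, n = 3). GNB1 had 6381, 6511 and 6353 normalised counts in untreated samples and 6138, 6221 and 5898 after VPA. Its groups did not overlap, yet the log2 fold change of -0.08 (SE 0.04) did not pass the test (adjusted p = 0.0955, edgeR's quasi-likelihood test). GNB2 had 3289, 3264 and 3130 against 3601, 3386 and 3200, which overlapped. Its log2 fold change was 0.07 (SE 0.04, adjusted p = 0.162, edgeR's quasi-likelihood test). GNB5, the partner of the R7 RGS proteins, was the only Gβ gene past the adjusted p, with a log2 fold change of 0.29 (SE 0.07, 314 ± 10 to 385 ± 19 normalised counts). GNB3 (0.13) and GNB4 (0.07) did not pass. The summed Gβ level per kilobase was 1.00 times the untreated level, or 1.02 times with exon-union lengths.

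The 8 tested Gγ genes all passed the adjusted p, 5 higher and 3 lower, and 3 were called higher. Over all tested genes 32.9% were higher and 30% lower by adjusted p, and 12% were called higher. GNG11 and GNGT1 did not keep their adjusted p under DESeq2 (0.186 and 0.155). GNG4, a Gγ gene expressed in the nervous system, had 679, 747 and 651 normalised counts in untreated samples and 1997, 1929 and 1840 after VPA. The groups were well separated, and the log2 fold change was 1.47 (SE 0.05, adjusted p = 1.91e-15, edgeR's quasi-likelihood test). GNG2, a widely used subunit of Gβγ, had 55.9, 48.2 and 64.0 against 244, 282 and 294, again without overlap. Its log2 fold change was 2.28 (SE 0.12, adjusted p = 5.38e-13, edgeR's quasi-likelihood test).

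GNG8, the Gγ gene of the olfactory and vomeronasal system, had 8 reads in all untreated and 31 in all treated samples. It had 2.07, 3.14 and 3.15 normalised counts in untreated samples and 10.5, 9.63 and 9.57 after VPA, without overlap. The log2 fold change was 1.79 with an SE of 0.46 (adjusted p = 0.00198, edgeR's quasi-likelihood test). With a filter of at least 10 reads in every library, neither GNG8 nor ADCY10 was tested.

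GNG7, a striatal Gγ, was higher by a log2 fold change of 0.66 (SE 0.07), from 247 ± 8 to 390 ± 6 normalised counts, and GNG11, a farnesylated Gγ, by 0.40 (SE 0.14), with an adjusted p of 0.0873 when untreated replicate 1 was left out. Downward, GNG12, a widely expressed Gγ, had 1067, 1107 and 1077 normalised counts and 858, 829 and 847 after VPA, a log2 fold change of -0.36 (SE 0.05, adjusted p = 1.81e-06, edgeR's quasi-likelihood test). GNG5, the most abundant Gγ gene per length, had 1889, 1831 and 1847 against 1640, 1711 and 1588. Its log2 fold change was -0.17 (SE 0.04, adjusted p = 0.00195, edgeR's quasi-likelihood test). In both, every treated sample lay below every untreated one, though the log2 fold change of GNG5 was 0.10 when scaled on ribosomal protein genes.

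GNGT1, the rod transducin Gγ, had 20.7, 12.6 and 15.7 normalised counts in untreated samples and 8.62, 8.67 and 9.57 after VPA. The groups did not overlap, and the log2 fold change of -0.86 had an SE of 0.32 (adjusted p = 0.0239, edgeR's quasi-likelihood test). Without untreated replicate 2 it was -1.02 and would have been the 1 member called lower, and without untreated replicate 1 its adjusted p was 0.137. Its neighbour GNG11 lies 10469 bases further along chromosome 7 on the same strand and was among the genes that were higher.

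GNG4 is shown next because it was the only abundant member called. Its window, chr1:235650559-235650858 on the minus strand of GRCh38.p14, is written 5′ to 3′ on the strand of the gene with GGGCGG on either strand in capitals.
GNG4: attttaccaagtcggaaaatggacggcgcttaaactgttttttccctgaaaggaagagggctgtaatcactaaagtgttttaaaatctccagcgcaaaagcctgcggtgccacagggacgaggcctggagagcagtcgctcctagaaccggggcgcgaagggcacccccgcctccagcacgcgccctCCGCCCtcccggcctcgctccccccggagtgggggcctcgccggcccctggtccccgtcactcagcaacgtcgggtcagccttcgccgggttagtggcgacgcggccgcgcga
The single match begins 63 bases before the start. GNG4 held 5.02% ± 0.39 of the summed Gγ level per kilobase in untreated cells and 13.7% ± 0.5 after VPA, while GNG5 held 81.6% ± 0.4 and 71.3% ± 0.6 (SD, n = 3). With exon-union lengths the share of GNG4 was 16.0% and 34.9% and that of GNG5 was 44.4% and 30.9%, so the order of the 2 genes after VPA depended on the length used.

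Of the 7 tested adenylyl cyclases all had their 3 VPA-treated samples above the 3 untreated ones, 6 passed the adjusted p and 3 were called higher. Over all tested genes 34.8% lay above without overlap, 32.9% were higher by adjusted p and 12% were called higher. The called share was 29.1% under 100 normalised counts, where ADCY5 and ADCY10 lie, and ADCY10 passed the filter through the VPA-treated group alone. ADCY5, a Gi-inhibited cyclase of striatum and heart, had 43.5, 35.6 and 47.2 normalised counts in untreated samples and 126, 131 and 144 after VPA. The log2 fold change was 1.66 (SE 0.14, adjusted p = 1.15e-09, edgeR's quasi-likelihood test). ADCY7, a cyclase stimulated by Gβγ together with Gαs, had 158, 154 and 152 against 381, 336 and 342, a log2 fold change of 1.19 (SE 0.09, adjusted p = 8.68e-11, edgeR's quasi-likelihood test). ADCY7 overlaps BRD7 on the opposite strand by 4649 bases, and BRD7 had a mean of 2978 normalised counts. The libraries were prepared by a strand-specific protocol, and the strand setting of the counting is not given in the sources used here.

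ADCY10, the soluble cyclase stimulated by bicarbonate rather than by G proteins, had 4.14, 3.14 and 9.45 normalised counts in untreated samples and 20.1, 23.1 and 24.9 after VPA. The lowest treated sample was above the highest untreated one, and the log2 fold change was 2.0 (SE 0.35, adjusted p = 4.06e-05, edgeR's quasi-likelihood test). Even after VPA its level was 4.25 ± 0.45 normalised counts per kilobase (SD, n = 3).

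The membrane cyclases that dominated by level changed little. ADCY3, a calmodulin-sensitive cyclase known from olfactory neurons and primary cilia, had 1917, 1911 and 1981 normalised counts against 2277, 2232 and 2129. It was higher by a log2 fold change of 0.19 (SE 0.04, adjusted p = 0.00058, edgeR's quasi-likelihood test). ADCY6, a calcium-inhibited cyclase, had 1339, 1264 and 1334 against 1395, 1390 and 1450, and its log2 fold change of 0.11 (SE 0.05) did not pass (adjusted p = 0.0533, edgeR's quasi-likelihood test). ADCY1, a calmodulin-stimulated neuronal cyclase, and ADCY9, the forskolin-resistant cyclase, were higher by log2 fold changes of 0.63 (SE 0.05) and 0.40 (SE 0.05). The summed level of the class per kilobase was 866 ± 11 in untreated cells and 1080 ± 11 after VPA (SD, n = 3), a ratio of 1.25.

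**Figure D3:**
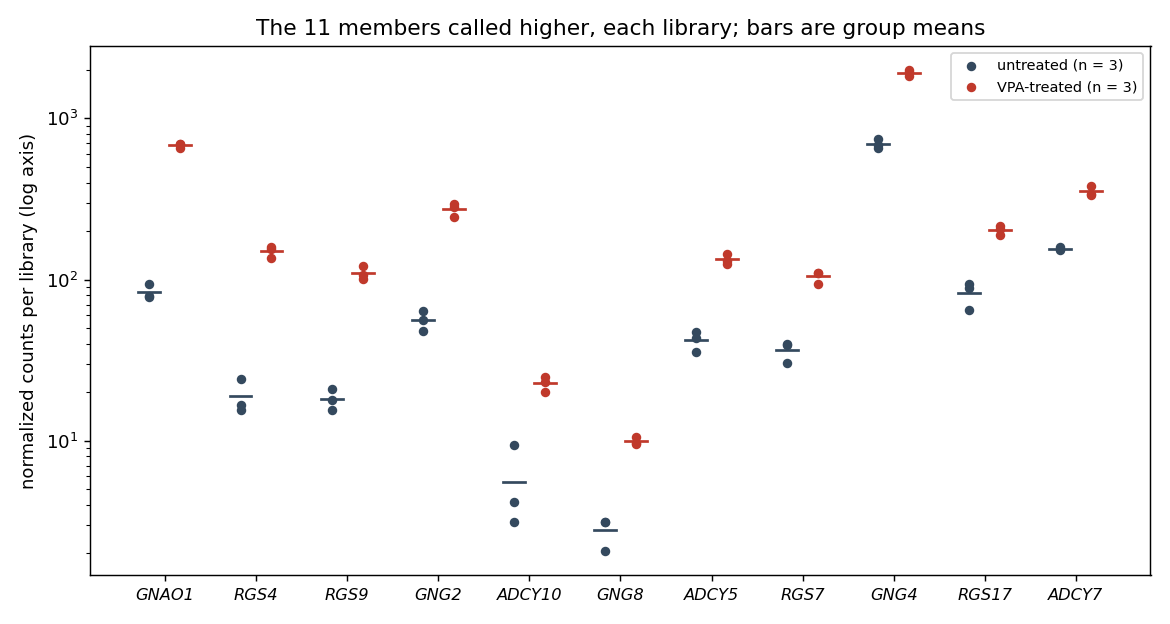
Normalised read count in each of the 6 samples for the 11 genes called higher (logarithmic y axis; points are samples, bars are means of 3). In all 11 the lowest VPA-treated sample lies above the highest untreated sample, from GNG8 at 9.57 against 3.15 to GNG4 at 1840 against 747.

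The RGS class held 13 tested genes, of which 10 were higher by adjusted p, 4 of them called, and 0 were lower by edgeR's quasi-likelihood test, also at an unadjusted p under 0.05. Over all tested genes 32.9% were higher, 12% called and 30% lower. The called share was 29.1% under 100 normalised counts, where RGS4, RGS7 and RGS9 lie. RGS4, an R4 regulator of Gi/o and Gq abundant in brain, had 15.5, 16.7 and 24.1 normalised counts in untreated samples and 136, 160 and 155 after VPA. The groups were far apart, and the log2 fold change was 2.99 (SE 0.17, adjusted p = 1.51e-12, edgeR's quasi-likelihood test). RGS5, an R4 gene 65496 bases beyond RGS4 on chromosome 1, had 55.9, 51.3 and 60.9 against 67.1, 70.3 and 60.3, which overlapped, and its log2 fold change of 0.23 (SE 0.15) did not pass.

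The R7 subfamily, whose members bind Gβ5, had both of its tested genes called, while RGS6 and RGS11 were not tested. Both called genes lie under 100 normalised counts, where 29.1% of all tested genes were called higher. RGS9, known from rod cells and striatum, had 15.5, 20.9 and 17.9 normalised counts in untreated samples and 121, 100.2 and 107 after VPA, a log2 fold change of 2.59 (SE 0.18, adjusted p = 3.57e-11, edgeR's quasi-likelihood test). RGS7, a brain regulator of Gαo, had 39.3, 30.4 and 39.9 against 110, 94.4 and 109, a log2 fold change of 1.51 (SE 0.15, adjusted p = 1.96e-08, edgeR's quasi-likelihood test). Neither pair of groups overlapped. R7 genes held 2.31% ± 0.04 of the summed RGS level per kilobase in untreated cells and 6.72% ± 0.58 after VPA (SD, n = 3), or 0.693% and 2.40% with exon-union lengths. RGS9 lies 80629 bases from GNA13 on chromosome 17, and GNA13 had a log2 fold change of -0.05.

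RGS17, an RZ regulator of Gαz and Gαo, had 93.2, 64.9 and 89.2 normalised counts in untreated samples and 215, 189 and 207 after VPA. The groups were separate, and the log2 fold change was 1.30 (SE 0.12, adjusted p = 5.7e-09, edgeR's quasi-likelihood test). RGS3 lay just under the threshold, with 35.2, 35.6 and 43.0 normalised counts against 77.6, 74.2 and 70.8 and a log2 fold change of 0.97 (SE 0.16), which was 1.06 without untreated replicate 3. RGS16 followed at 0.76 (SE 0.08).

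The RGS genes with the highest level per length were of the R12 and RZ subfamilies. RGS10, the shortest R12 regulator, had 266, 304 and 291 normalised counts in untreated samples and 341, 393 and 375 after VPA, without overlap, and a log2 fold change of 0.37 (SE 0.08, adjusted p = 0.000337, edgeR's quasi-likelihood test). RGS19, also known as GAIP, had 311, 273 and 298 against 296, 248 and 236, which overlapped, and its log2 fold change of -0.18 (SE 0.09) did not pass (adjusted p = 0.0868, edgeR's quasi-likelihood test). RGS12 (0.17), RGS14 (0.41) and RGS20 (0.44) were higher by adjusted p alone, of which RGS12 and RGS20 did not pass with DESeq2 (adjusted p = 0.243 and 0.165), and RGS2 (-0.13) did not pass. The summed RGS level per kilobase was 971 ± 30 in untreated cells and 1278 ± 4 after VPA (SD, n = 3), a ratio of 1.32, while the ratio was 0.881 for Gα and 1.02 for Gγ. With exon-union lengths the ratios were 1.29 for RGS, 0.99 for Gα and 1.27 for Gγ, so those of Gα and Gγ depended on the transcript assumed.

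The windows of RGS4 and RGS17 are shown because the 2 called genes differ in composition. The most upstream of 4 RefSeq windows of RGS4, chr1:163068621-163068920 on the plus strand, had 44.7% G and C and a ratio of observed to expected CpG of 0.535. The window of RGS17, chr6:153131233-153131532 on the minus strand, had 82.0% G and C and a CpG ratio of 0.921. Capitals again mark GGGCGG on either strand.
RGS4: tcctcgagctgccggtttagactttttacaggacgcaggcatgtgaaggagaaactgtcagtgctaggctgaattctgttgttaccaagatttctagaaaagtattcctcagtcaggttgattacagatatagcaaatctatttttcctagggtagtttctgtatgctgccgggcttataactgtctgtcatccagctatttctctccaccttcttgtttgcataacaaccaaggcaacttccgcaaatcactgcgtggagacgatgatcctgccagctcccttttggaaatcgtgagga
RGS17: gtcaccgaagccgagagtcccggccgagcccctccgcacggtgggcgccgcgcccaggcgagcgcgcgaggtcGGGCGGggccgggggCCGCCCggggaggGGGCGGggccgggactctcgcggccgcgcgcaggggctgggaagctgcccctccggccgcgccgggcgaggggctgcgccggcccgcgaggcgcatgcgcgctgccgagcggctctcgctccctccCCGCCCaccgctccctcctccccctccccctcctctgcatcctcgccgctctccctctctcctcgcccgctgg
RGS17 held 4 matches, beginning 177, 162, 149 and 23 bases before the start, and RGS4 held none.

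Over all members, 54 of 65 had a RefSeq window, including the 11 called and 28 other tested genes. The median CpG ratio was 0.772 in the called genes and 0.772 in the others, against 0.836 for all tested genes. GGGCGG was found in 6 of 11 and 21 of 28 windows. TGACGTCA was found in 1 of 11 (GNAO1) and 1 of 28 (GNG7), and its first letters TGACG, which lie within it, in 2 of 11 and 7 of 28, against 33.4% of the windows of tested genes. TATAAA was found in 0 of 11 and 0 of 28 windows, against 5.72%. The letters TTCAGCACC and GGACAGCG, parts of the element bound by REST, a repressor of neuronal genes, were found in 0 of 11 called genes, and in 0 and 2 of the 28 others, against 0.298% and 2.39% of the windows of tested genes. All motifs were read on both strands, 1 window per gene was used, and which start these cells use is not known from gene counts.

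**Figure D4:**
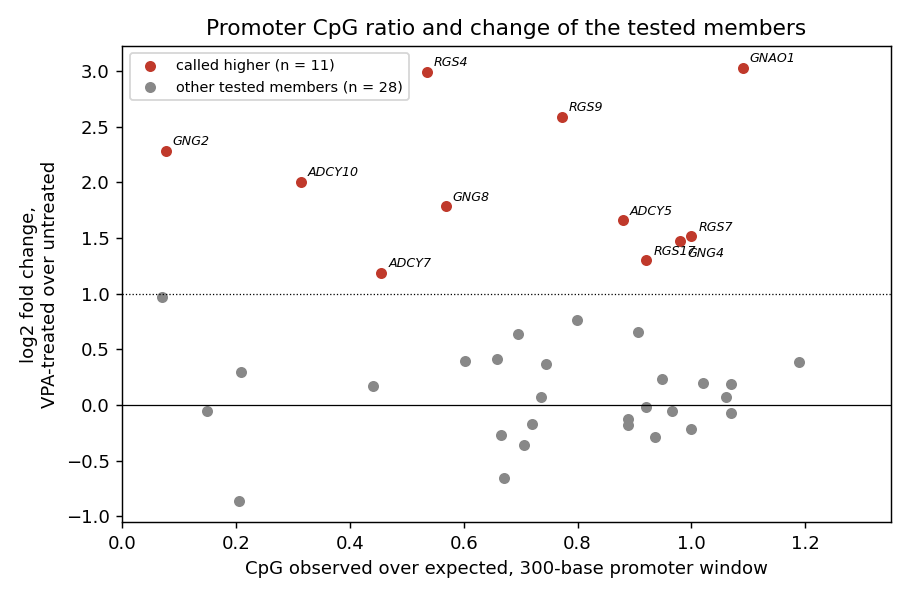
Ratio of observed to expected CpG in the 300-base RefSeq promoter window (x axis) and log2 fold change of VPA-treated over untreated cells (y axis) for the tested members with a window, 11 called higher and 28 others. The called genes spread from 0.0758 for GNG2 to 1.09 for GNAO1, and other members lie beyond both ends, RGS3 at 0.0689 and GNAL at 1.19.

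The filter on low counts left 20 members untested. ADCY8, GNAT3, GNG14, RGS1, RGS18 and RGS21 had 0 reads in all 6 libraries, which allows up to 3 reads over a group. RGS22 had 0 reads in the 3 untreated libraries together and 15 in the 3 VPA-treated ones. Set against a floor of 3 reads over the untreated group, that was 4.59-fold higher. RGS6, an R7 gene, and RGS8 each had 0 and 7 reads, 2.14-fold higher against the same floor. Both ratios take the treated reads as exact and are no lower bounds. Without the filter these 3 genes were also called higher, which made 14. Their log2 fold changes of 5.29, 4.23 and 4.23 depend on the prior count.

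The other untested members showed few reads in both groups. ADCY2 and ADCY4 had 0 and 3 reads, RGS13 0 and 2, GNAT1 1 and 9, GNA14 4 and 8, GNG3 4 and 8, and GNGT2 2 and 4. GNA15 had 7 and 5 reads, GNG10 8 and 7, GNG13 2 and 1, and RGS11 6 and 5. GNG10 shares its whole span of 8622 bases with the readthrough gene DNAJC25-GNG10 on the same strand, which had a count of 0. How reads in the shared bases were assigned is not stated, and they can be left out as ambiguous for both genes. The few reads of GNG10 therefore do not show a low level. RGS16 (0.76) and the untested RGS8 are neighbours, as are GNAI2 and GNAT1, GNAI1 and GNAT3, and GNAQ and GNA14, so within each pair 1 gene was well counted and the other was at or near 0. RGS18, RGS21, RGS1 and RGS13, at or near 0, lie next to RGS2 on chromosome 1.

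The remainder of the pathway was examined in 7 lists chosen with earlier results of these data known. The shares over all tested genes, given above, were 12% called higher, 32.9% higher and 30% lower by adjusted p, and 29.1% called higher under 100 normalised counts. The enzymes that break down cAMP held 7 called of 15 tested genes, with a median log2 fold change of 0.89. PDE1A (2.02), PDE1B (2.22) and PDE1C (4.14), the calmodulin-stimulated phosphodiesterases, were among them, the last from 3 to 64 reads. PDE2A (2.98), PDE3A (1.53), PDE4B (1.71) and PDE7B (2.37) were the others, and by adjusted p alone 12 were higher and 1 lower. PDE1C and PDE7B passed the filter through the VPA-treated group alone. For PDE2A the mean rose from 14.6 to 116 normalised counts.

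Among effectors of Gq, G12/13 and Gβγ, 5 of 15 tested genes were called higher, with a median log2 fold change of 0.55, 9 higher and 2 lower by adjusted p alone. They were KCNJ3 (1.87) and KCNJ5 (2.26), subunits of the potassium channel opened by Gβγ, PIK3R5 (2.71), the adaptor of the Gβγ-stimulated phosphoinositide 3-kinase, and the exchange factors PREX1 (1.40) and KALRN (1.57). KCNJ5 rested on 7 and 38 reads and passed the filter through the VPA-treated group alone. The untested genes of this list had few reads. PIK3CG, the catalytic subunit of the kinase that PIK3R5 adapts, had 1 in untreated and 3 in treated samples. PIK3R6 had 0 and 5, KCNJ6 0 and 3 and KCNJ9 0 and 2. Of 11 tested genes of protein kinase A and EPAC, PKIB (1.74), an inhibitor of protein kinase A, was called, 6 were higher and 2 lower by adjusted p, and the median was 0.24.

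Among CREB factors and coactivators more genes were lower than higher: of 9 tested, 0 were called, 1 was higher and 7 were lower by adjusted p, with a median log2 fold change of -0.23. Falls of this size depend on the scaling. With ribosomal protein genes as reference the median of all tested genes moved from 0.01 to 0.28, and the number of list genes lower by adjusted p was not counted there. The lower ones included CREBBP (-0.52) and ATF1 (-0.57) and the higher one was CREM (0.30), named after their values were seen. Of 10 tested cAMP-responsive genes, BDNF (4.53), AREG (1.77) and PPARGC1A (1.20) were called higher, 5 were higher and 2 lower by adjusted p, and the median was 0.33. BDNF rested on 4 reads in untreated and 109 in treated samples and AREG on 14 and 53. Both had under 10 reads in every untreated library and passed the filter through the VPA-treated group, so the count for this list draws in part on genes kept because they were high there.

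Of 7 tested receptor kinases and arrestins 0 were called, 4 were higher and 2 lower by adjusted p, and the median was 0.27. Of 11 tested chaperones, exchange and anchor proteins GPR158 (1.31), a receptor that anchors R7 complexes, was called, 6 were higher and 2 lower by adjusted p, and the median was 0.37. That list also holds PHLPP1, a phosphatase that is no chaperone.

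**Figure D5:**
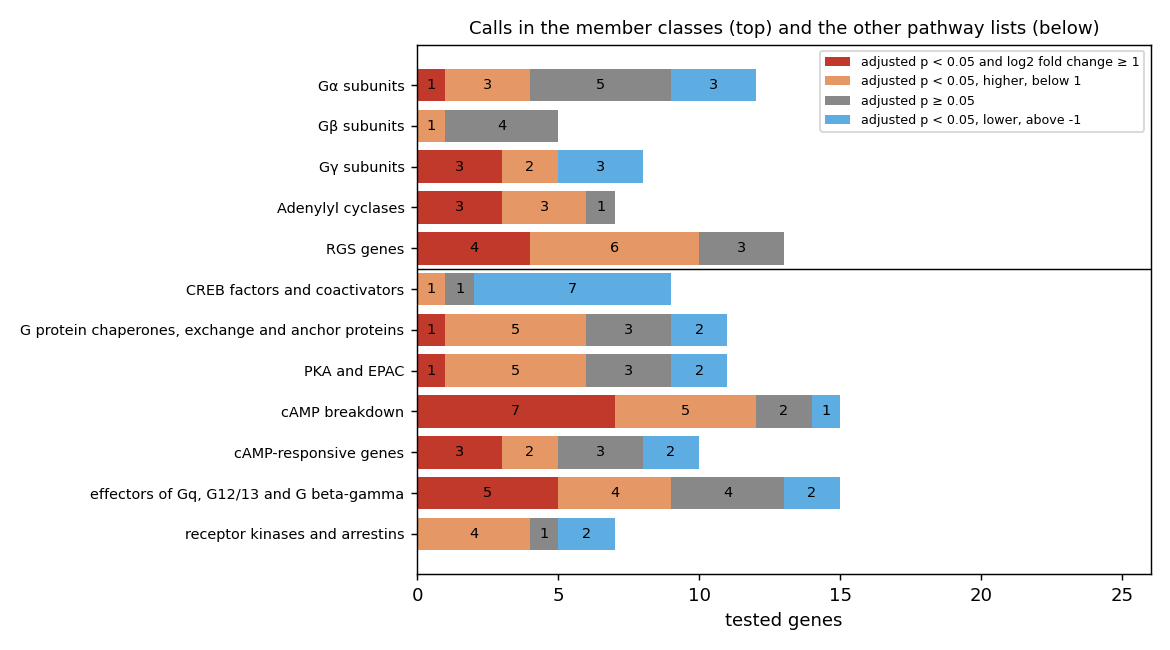
Number of tested genes per call in the 5 member classes (above the line) and the 7 other pathway lists (below it). Each bar is split by adjusted p and log2 fold change, so that the 7 called genes of cAMP breakdown, the 4 of RGS and the 0 of Gβ can be read side by side.

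Markers of other cell types were read beside these results. All 10 markers of embryonic kidney or of the line were detected, 2 were called higher (KRT8 and PAX2) and 4 were higher and 5 lower by adjusted p. Of 9 neuronal markers 4 were tested and all 4 were called higher, namely MAP2 (1.81), RBFOX3 (2.10), SNAP25 (3.05) and TUBB3 (1.37). Over all tested genes 12% were called higher, and 29.1% under 100 normalised counts, where MAP2, RBFOX3 and SNAP25 lie. SNAP25 had 6 and 57 reads and passed the filter through the VPA-treated group alone. The summed level of the 9 markers ranged from 176 to 225 normalised counts in untreated and from 581 to 636 in VPA-treated samples. DCX and SYN1, both on chromosome X, were listed at 0. Several called members are known from neurons, and the part of this change in their result was not tested.

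Of 10 markers of rods, cones and olfactory cells 1 was tested and 0 were called. Their sum ranged from 25.1 to 36.7 normalised counts in untreated and from 30.6 to 41.2 in treated samples, and ARR3, CRX, GUCA1A and PDE6C were at 0. Of 9 blood and platelet markers 2 were tested and 0 called, with sums from 128 to 149 and from 192 to 245, and PPBP was at 0.

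Opposite-strand genes overlap other members too. GNAT2 overlaps AMPD2 (mean of 2205 normalised counts), GNB3 overlaps CDCA3 (1287), RGS5 overlaps NUF2 (811), ADCY3 overlaps CENPO (1907) and GNAL overlaps MPPE1 (252.6). The libraries were strand-specific, but whether the counting used strand is not stated, so the values of these members are uncertain to that extent. GNAL also overlaps CHMP1B (mean of 499) by 3032 bases on the same strand, which counting by strand would not separate. Untested members that lie opposite abundant genes had few reads: GNG13 had 3 in all opposite CHTF18 (mean of 1916), RGS11 had 11 opposite FAM234A (1067) and GNG14 had 0 opposite FBXW9 (343.8). These counts cannot decide whether strand was used, since counting without strand can leave out reads in shared bases as ambiguous.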

How the data were processed

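RNA-seq was performed on 6 HEK293T samples, 3 untreated and 3 given 1 mM VPA for 1 day. The authors trimmed reads with SOAPnuke, aligned them to GRCh38 (hg38) with STAR (2.7.10b in the submitters' processing notes) and deposited read counts per gene from HTSeq (2.0.1 in those notes), one file per sample. The gene annotation and strand setting are not given in the sources used here. The 5 summary lines of each file were left out. Reads with no feature came to 6.80 to 7.69% of the total, ambiguous reads to 1.97 to 2.10% and non-unique reads to 2.81 to 2.92%.

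The deposited counts were fitted with edgeR 4.0.16 in R 4.3.3 (quasi-likelihood, robust, TMM, prior count 0.125, filterByExpr with a minimum of 10), and p-values were adjusted over 15298 genes. The standard error was the log2 fold change divided by the square root of F. In counts simulated for this comparison over 15054 genes, 195 of 196 genes changed by 2 on the log2 scale were recovered with 0 false calls. The biological coefficient of variation was 3.83%, and replicates differed by 1.57 to 4.47 times the sampling variance (chi-square per gene), so no sample was a copy of another. Symbols were matched to RefSeq (GRCh38.p14) for position and promoter and to GENCODE 44 for transcript length, 65 of 65 in both, and 54 of 65 had a promoter window. Where several windows were listed, the most upstream was taken.

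The members and lists were chosen with earlier results of these data known. Values per sample are given for every called member, every member lower by adjusted p, and the 2 with the highest level per length of each class. Others were added after their values were seen. Genes of the lists are named when called, with a few others added after their values were seen. Some marker genes are not reported here. Same-numbered samples correlated by 0.139, 0.0214 and 0.0805 in their deviations from the group means, and differently numbered ones by -0.107 to 0.0308. The values of 0.139 and 0.0805 lay above that range, so whether the numbers pair the samples is undecided. The main fit did not pair them. Alternatives were DESeq2 1.42.0, other scalings, other filters, a test against the fold threshold (glmTreat), a replicate block and leaving out each sample.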

Additional observations from a re-analysis of the deposited data

How the results depend on the processing

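The number of members called higher was 11 and ranged from 9 (at least 10 reads in every library, or glmTreat) to 14 (no filter, or scaling on ribosomal protein genes). DESeq2 called 12. Without one sample at a time 11 to 12 were called higher and 0 to 1 lower, the 1 being GNGT1 without untreated replicate 2. The number of members lower by adjusted p was 6. Scaling to library totals left 3 and scaling on ribosomal protein genes left 0. With a replicate block 11 were called higher and 0 lower, 28 were higher and 8 lower by adjusted p, and no call at both thresholds changed.

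Several members with small negative log2 fold changes turned direction with the scaling, among them GNA11, GNAS and GNG5, which were lower by adjusted p with TMM. The scaling moved the median of all genes from 0.01 to 0.07 (upper quartile), 0.14 (library totals) and 0.28 (ribosomal protein genes). With upper quartile scaling the log2 fold change became 0.012 for GNA13, 0.047 for GNAI1 and 0.011 for GNAI2. With library totals it became 0.078 for GNA13, 0.11 for GNAI1, 0.077 for GNAI2, 0.063 for GNAQ, 0.055 for GNB1 and 0.00095 for RGS2. With ribosomal protein genes it became 0.057 for GNA11, 0.22 for GNA13, 0.26 for GNAI1, 0.22 for GNAI2, 0.21 for GNAQ, 0.0011 for GNAS, 0.20 for GNB1, 0.10 for GNG5, 0.094 for RGS19 and 0.14 for RGS2. With at least 10 reads in every library GNAI1 was at 0.0043. The share of members' calls by adjusted p that were higher was 81.2% with TMM, 91.2% with library totals and 100% with ribosomal protein genes (all genes 52.3, 73.9 and 91.7%). Of 626 recomputed fold changes of the 45 members, 598 kept their direction and side of the threshold, 20 reversed and 8 newly passed both thresholds. These 8 were GNAZ, RGS3 and RGS16 under other scalings, RGS3 without untreated replicate 3, and GNGT1. By adjusted p alone, GNG11, GNGT1, RGS12 and RGS20 lost significance with DESeq2 and without at least 1 of the samples. Low counts left 20 members untested.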
